A study of Mus musculus with 12 samples.

Results

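The genes described here are 37 lysosomal genes chosen by symbol for their role in the lysosome, in a table that lists 23309 genes and 92 synthetic ERCC RNAs. All 37 were in the table, and all 37 were among the 11516 genes tested, which reached 1 FPKM in 2 or more of the 12 libraries. They comprise 9 cathepsins and other proteases, 10 glycosidases, 3 sulfatases, 7 lipid hydrolases, activators and sterol transporters, 6 membrane proteins, the progranulin gene Grn, and the transcription factor gene Tfeb.

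The cultures are mouse bone marrow progenitors, selected for CD117 and immortalized with a retrovirus that carries HoxB8 fused to the estrogen receptor (ER-HoxB8), so that they stay immature while estradiol (E2) and interleukin 3 are supplied and mature when E2 is taken away. The wild-type and HMGN1-OE cells compared here share this immortalization, the C57BL/6 background and the medium, and HMGN1-OE cells differ by a transgene for human HMGN1, a nucleosome-binding protein. RNA sequencing was done at 0, 36 and 96 h after E2 withdrawal, with 2 libraries in each of 6 groups. The 2 libraries of a group are called a and b here, which is only a name and pairs nothing between groups. The study describes its RNA-seq libraries as biological duplicates, without saying whether they came from separate animals or founder cultures, and the p-values below measure only the spread between these libraries. The age of the mice, the promoter of the transgene and the number of founder cells are not given in the sources used here.

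Lysosomes are acidic organelles in which hydrolases digest proteins, sugars and lipids delivered by endocytosis, phagocytosis and autophagy. Most of the soluble enzymes are made as precursors, tagged with mannose 6-phosphate in the Golgi and sorted to the organelle, where a proton pump (the V-ATPase) keeps the lumen acidic. TFEB is a transcription factor that binds a short E-box motif near the start of many lysosomal genes. Monocytes, macrophages and granulocytes are rich in lysosomes or in related granules.

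The values are FPKM that the authors normalized to spiked ERCC RNAs, for RNA from a fixed number of cells, and 2 scales are used below. Deposited FPKM ask about the level per cell, in the sense that the spike-in allows. Scaled FPKM are the same values divided by a library factor, the median over tested genes of a gene's FPKM over its geometric mean in the 12 libraries, and they ask whether a gene moved against the median gene. The factors ran from 1.10 to 2.38 in the libraries of 0 and 36 h and from 0.220 to 0.539 in the 4 libraries of 96 h, so the choice of scale decides the sign of many changes over 96 h. The depth of the libraries is unknown. Mouse Hmgn1 was listed at 67.5 to 120 scaled FPKM at 0 h and at 21.4 to 38.5 at 96 h, and the human transgene was not analysed here.

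Libraries that stand apart are described first, since several results rest on them. The wild-type 36 h library b was nearest to the wild-type 0 h library a over all tested genes, at a root mean square difference of 0.385 on the log2 scale. Flt3, a receptor of early progenitors, was at 2.10 scaled FPKM in the wild-type 36 h library a and 28.2 in library b, against 5.02 and 6.68 in the HMGN1-OE libraries of 36 h and 32.3 to 56.3 in the 4 libraries of 0 h. The wild-type 0 h library b was nearest to the wild-type 36 h library a, at 0.483. Each wild-type library b of 0 and 36 h was thus nearest to a library of the other time, and whether libraries were exchanged was not tested, so the wild-type values of 0 and 36 h hold only for the libraries as labelled. Markers of monocytes and macrophages, of which 10 of 11 listed were in the table, summed to 11.5 to 28.3 scaled FPKM at 0 h, to 22.3 to 39.2 at 36 h, to 115 and 82.4 in HMGN1-OE at 96 h and to 117 and 301 in wild-type libraries a and b at 96 h. In the wild-type 96 h library b, Csf1r, the receptor of macrophage growth factor, was at 61.5 scaled FPKM against 14.4 to 18.2 in the other 96 h libraries, and Cd74, a chaperone of antigen presentation, was at 54.5 against 2.80 to 5.36 in the other 96 h libraries. Most of that list was highest in the same library, with the macrophage receptor Mrc1 at 13.6 against 2.88 to 3.08 in the other 96 h libraries, and the complement genes C1qa, C1qb and C1qc at 0.871, 3.47 and 1.29 against at most 0.333 for any of the 3 in the others. Fcgr1 and Ly86 were not highest there, and no marker of the list was listed at 0. Neutrophil genes such as Ngp and Camp were high in all 4 libraries of 96 h, and S100a9 was listed at 0.103 scaled FPKM in the wild-type 96 h library a against 120715 to 136357 in the other 3 libraries of 96 h. Eosinophil markers, 3 of 4 listed in the table, summed to 1.48 to 14.7 scaled FPKM at 0 h and 2.03 to 26.9 at 36 h. At 96 h they summed to 4267 and 4469 in wild-type cells and 486 and 923 in HMGN1-OE cells, almost all of it Prg2. Mast cell and basophil markers, 7 of 7 in the table, summed to 1540 in the wild-type 36 h library a against 404 to 950.1 in the other 36 h libraries, to 368 to 646 at 0 h and to 338 to 1366 at 96 h. These values stand beside the lysosomal results below, and their part in them was not tested.

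**Figure D1:**
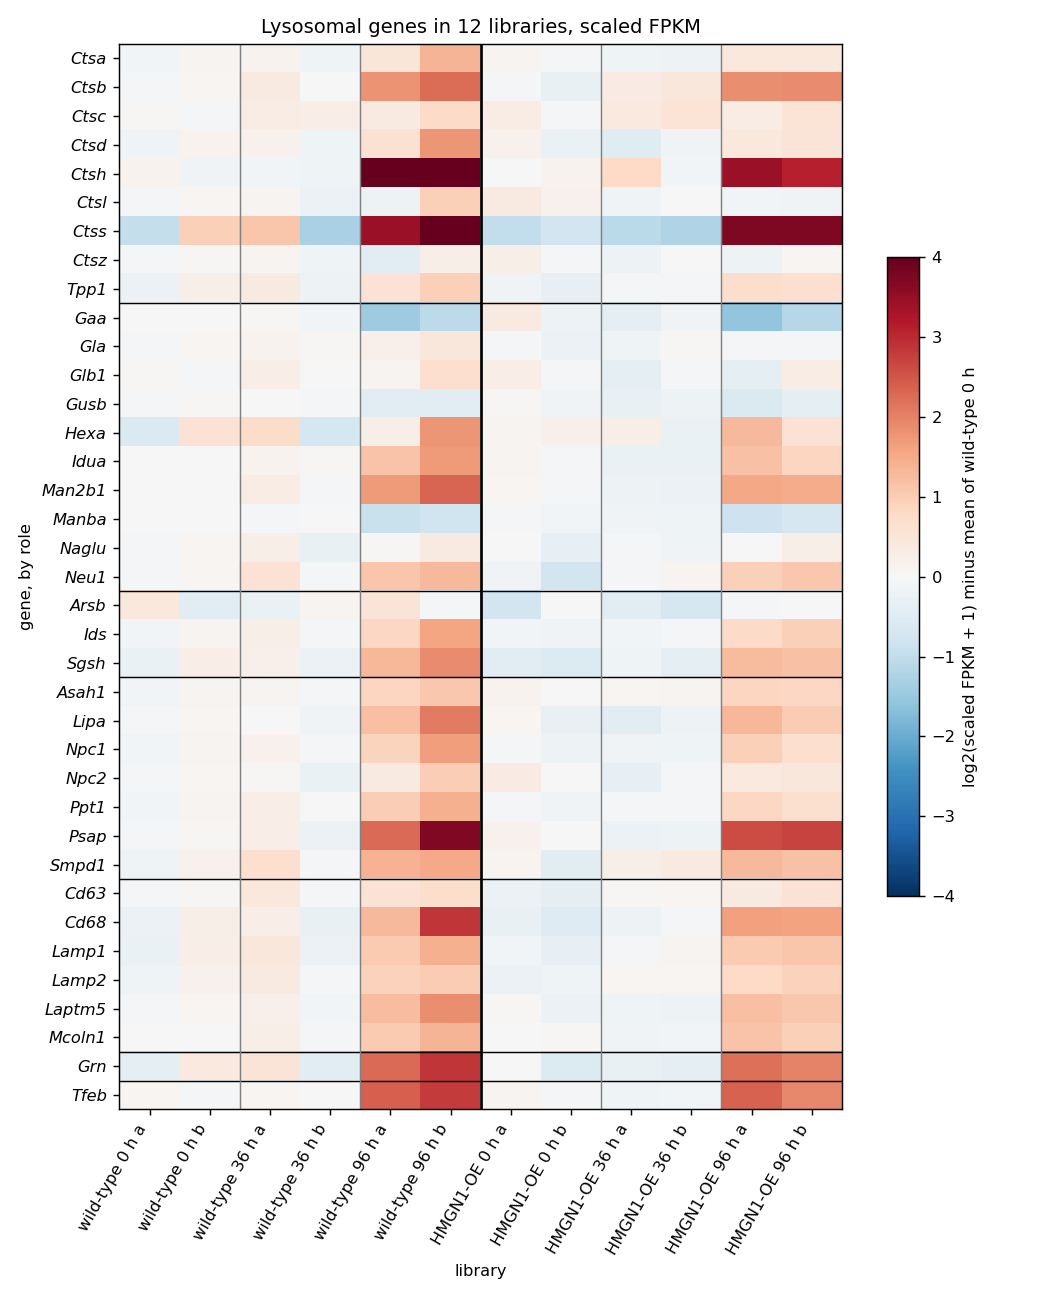
Each of the 37 lysosomal genes (rows, by role) in each of 12 libraries (columns), as log2(scaled FPKM + 1) minus the mean of the 2 wild-type 0 h libraries. Colours end at 4 on either side, and most rows turn red at 96 h in both genotypes while Gaa, Gusb and Manba turn blue, and Ctss and Hexa differ between the 2 wild-type libraries at 0 h and at 36 h.

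The E-box that TFEB binds was looked for in promoter windows of RefSeq (build GRCm38.p6, 250 bases before to 50 bases after a start site), which were found for 33 of the 37 genes. Ctsb, Ctsh, Npc1 and Asah1 had no entry. The core CACGTG, read on both strands, was present in 10 of the 33 genes, and in 8.09% of the 27025 genes with a window. With a leading T, as TCACGTG, it was present in 9 of the 33 and in 4.29% of all. The longer motif contains the shorter one. Windows are shown for 6 genes, the 4 with repeated copies within a short stretch and a pair that went opposite ways over 96 h, with the core in capitals.
Lamp1 (chr8:13159080-13159171, plus strand): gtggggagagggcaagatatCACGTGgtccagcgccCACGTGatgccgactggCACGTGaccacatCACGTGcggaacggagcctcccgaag
Ctsa (chr2:164833741-164833803, plus strand): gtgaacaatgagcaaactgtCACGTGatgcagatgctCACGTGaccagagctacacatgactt
Mcoln1 (chr8:3500428-3500499, plus strand): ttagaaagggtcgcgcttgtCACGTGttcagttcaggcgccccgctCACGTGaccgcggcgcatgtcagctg
Gla (chrX:134601174-134601252, minus strand): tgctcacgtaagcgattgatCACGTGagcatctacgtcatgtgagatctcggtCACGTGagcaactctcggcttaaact
Sgsh (chr11:119355514-119355559, minus strand): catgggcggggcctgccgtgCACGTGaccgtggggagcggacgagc
Gaa (chr11:119267803-119267848, plus strand): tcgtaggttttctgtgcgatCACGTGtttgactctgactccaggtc
The Lamp1 window holds 4 copies of the core that begin between positions -61 and -15 from the start site, the Ctsa, Mcoln1 and Gla windows hold 2 copies each, and the Sgsh and Gaa windows hold 1 each. A match is only a description of these letters. A purine-rich motif of the kind that the ETS factors of myeloid cells bind, GAGGAAG on either strand, was present in 8 of the 33 genes and in 15.4% of all.

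Over 96 h without E2, most of the lysosomal genes went up against the median gene in both genotypes. On scaled FPKM, 28 of the 37 were called higher and 3 lower in wild-type cells at 96 h against 0 h, where 36.1% of all tested genes were called higher and 35.6% lower. In HMGN1-OE cells 23 were called higher and 3 lower, where 33.6% of all were called higher and 32.8% lower. All 23 genes called higher in HMGN1-OE cells were also called higher in wild-type cells, and the 3 called lower were Gaa, Gusb and Manba in both. The median log2 change of the members was 1.20 in wild-type cells and 0.94 in HMGN1-OE cells, while the median over all tested genes was 0.00 in both by construction. Both libraries of 96 h lay above both of 0 h for 29 of 37 members in each genotype, against 42.6% of all genes in wild-type cells and 43.6% in HMGN1-OE cells. Among genes with a mean of at least 10 FPKM, 23 of 32 members were called higher in wild-type cells and 18 of 32 in HMGN1-OE cells, against 34.2% and 33.0% of the 7319 such genes. Without the wild-type 96 h library b, which carries the macrophage genes, the wild-type counts were 23 higher and 3 lower, with a median change of 0.89, and 3868 and 3740 of the 11516 genes were called higher and lower. In bulk RNA, fewer cells of a type and less RNA per cell cannot be told apart, nor can a change within cells and a change in which cells the culture holds.

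As deposited, without scaling to the median gene, more members fell than rose. On deposited FPKM, where the median log2 change of all genes was -1.75 in wild-type cells and -1.28 in HMGN1-OE cells, 2 members were called higher and 17 lower in wild-type cells, against 4.31% and 77.2% of all tested genes. In HMGN1-OE cells 2 were called higher and 10 lower, against 5.08% and 62.4%. The members' median change was -0.94 in wild-type cells and -0.48 in HMGN1-OE cells, and the change was negative for 32 and 28 of the 37, where it was for 91.8% and 88.9% of all genes. Ctsh and Ctss were called higher and Gaa, Gusb and Manba lower on both scales and in both genotypes. When each library was left out in turn, the deposited calls ran from 9 members, without the wild-type 0 h library b, to 26, without the wild-type 0 h library a, where 63.4% and 86.6% of all genes were called either way. In HMGN1-OE cells they ran from 4, without the HMGN1-OE 0 h library a, to 15, without either wild-type 96 h library, where 33.6% and at most 73.4% of all genes were called, and without the HMGN1-OE 96 h library a they were 5, where 33.7% were.

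**Figure D2:**
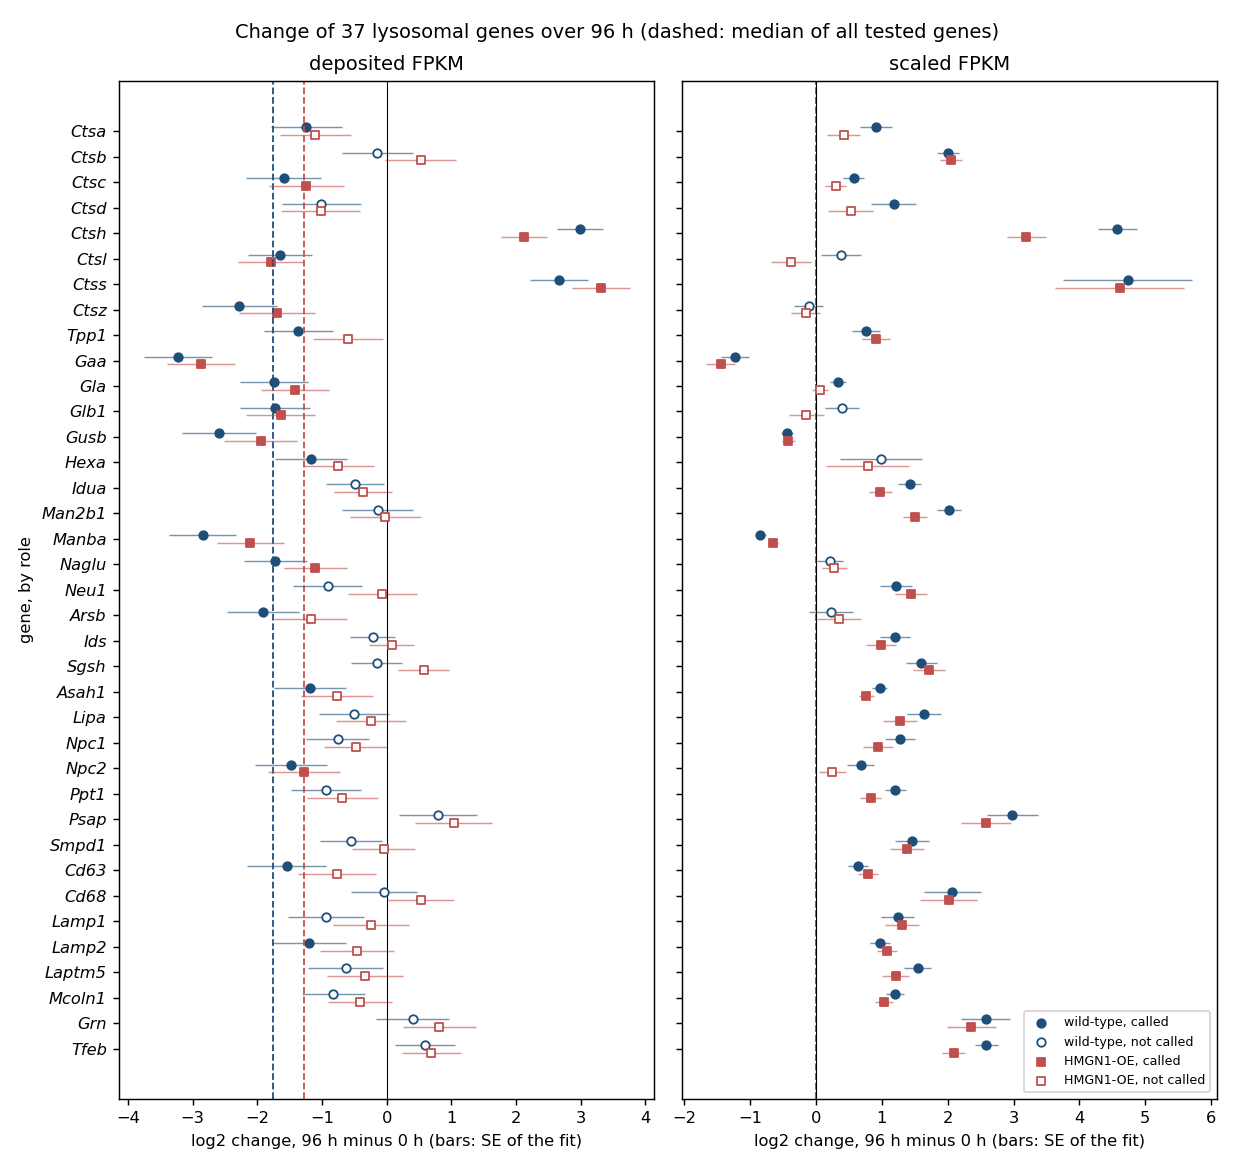
Change of each of the 37 genes from 0 to 96 h in wild-type (circles) and HMGN1-OE cells (squares), with the SE of the fit, on deposited FPKM at left and scaled FPKM at right. Filled symbols passed the test at an adjusted p under 0.05, and dashed lines mark the median of all 11516 tested genes, at -1.75 and -1.28 at left and at 0.00 at right.

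The proteases held the largest rises. Ctss encodes cathepsin S, a cysteine protease that trims the chaperone of antigen presentation. Its deposited FPKM were 0.963 and 12.7 at 0 h and 19.4 and 51.9 at 96 h in wild-type cells, and 1.41 and 1.30 at 0 h and 19.8 and 25.3 at 96 h in HMGN1-OE cells. Scaled FPKM of Ctss were 0.878 and 6.09 at 0 h and 38.9 and 236 at 96 h in wild-type cells, against 0.842 and 1.13 and then 48.0 and 47.0 in HMGN1-OE cells. The 96 h libraries lay above those of 0 h in both genotypes, and the spread within a genotype was widest in wild-type cells. The log2 change was 4.74 ± 0.98 (SE), adjusted p = 0.00230, in wild-type cells on scaled FPKM and 4.61 ± 0.98 (SE), adjusted p = 0.00314, in HMGN1-OE cells. Over the alternatives the scaled wild-type change ran from 3.48 to 6.05. On deposited FPKM the log2 change was 2.66 ± 0.45 (SE), adjusted p = 2.24e-08, in wild-type cells and 3.31 ± 0.45 (SE), adjusted p = 5.06e-12, in HMGN1-OE cells. These 2 calls were lost without the filter on low values, at adjusted p = 0.0949 and 0.0567. The deposited SE is that typical of genes at this level. It gives no weight to the wide gap between the wild-type 0 h libraries of Ctss. The deposited wild-type change was 1.26 without the 0 h library a and 4.06 without the 0 h library b.

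Ctsh encodes cathepsin H, an aminopeptidase. It was near the lowest values of the table at 0 h, at 0.334 and 0.107 scaled FPKM in wild-type cells and 0.213 and 0.353 in HMGN1-OE cells, and it reached 22.9 and 34.2 in wild-type cells and 12.2 and 9.39 in HMGN1-OE cells at 96 h. All 4 libraries of 96 h were above all 4 of 0 h. The log2 change was 4.58 ± 0.30 (SE), adjusted p = 6.53e-06, in wild-type cells and 3.19 ± 0.30 (SE), adjusted p = 4.3e-05, in HMGN1-OE cells on scaled FPKM. On deposited FPKM it was 2.99 ± 0.36 (SE), adjusted p = 2.65e-15, in wild-type cells and 2.13 ± 0.36 (SE), adjusted p = 4.01e-08, in HMGN1-OE cells. With each gene's own variance in place of the typical one, these adjusted p-values were 0.00447 and 0.0126. These fold changes depend on the pseudocount of 1, since the 0 h values lie below it.

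Ctsb, the gene of the cysteine protease cathepsin B, had scaled FPKM of 26.1 and 29.5 at 0 h and 98.7 and 133 at 96 h in wild-type cells, and of 26.4 and 22.5 and then 104 and 105 in HMGN1-OE cells. It was among the 6 largest rises in HMGN1-OE cells, at a log2 change of 2.05 ± 0.16 (SE), adjusted p = 2.39e-05, and the change in wild-type cells was 2.01. Ctsd, the gene of the aspartic protease cathepsin D, was the most abundant of the listed lysosomal proteases at 0 h. It was at 418 and 519 scaled FPKM in wild-type cells and 525 and 386 in HMGN1-OE cells. At 96 h it was at 710.3 and 1574 in wild-type cells and 631 and 671 in HMGN1-OE cells, and library b of the wild-type cells alone stood well above the others. It was called higher in wild-type cells, while the HMGN1-OE change of 0.53 did not pass (adjusted p = 0.197). Tpp1, a tripeptidyl peptidase, was called higher in both genotypes, at log2 changes of 0.76 in wild-type cells and 0.91 in HMGN1-OE cells. Ctsa (cathepsin A, which shields the galactosidase and neuraminidase from breakdown) and Ctsc (cathepsin C, which activates granule serine proteases) were called higher in wild-type cells, at 0.91 and 0.58, and gave 0.42 and 0.30 without a call in HMGN1-OE cells. Ctsl and Ctsz, both cysteine cathepsins, passed in neither genotype on scaled FPKM. Ctsz was at 147 and 156 scaled FPKM at 0 h and at 109.9 and 179 at 96 h in wild-type cells, so its groups overlapped. On deposited FPKM both fell in both genotypes, with log2 changes of -2.28 in wild-type cells and -1.70 in HMGN1-OE cells for Ctsz and of -1.65 and -1.79 for Ctsl. Ctsc was called lower in both genotypes and Ctsa and Tpp1 in wild-type cells on that scale, so the direction of these 3 turns with the scale. In HMGN1-OE cells the deposited calls of Ctsl and Ctsz were lost without the 0 h library a, at adjusted p = 0.0642 and 0.156.

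**Figure D3:**
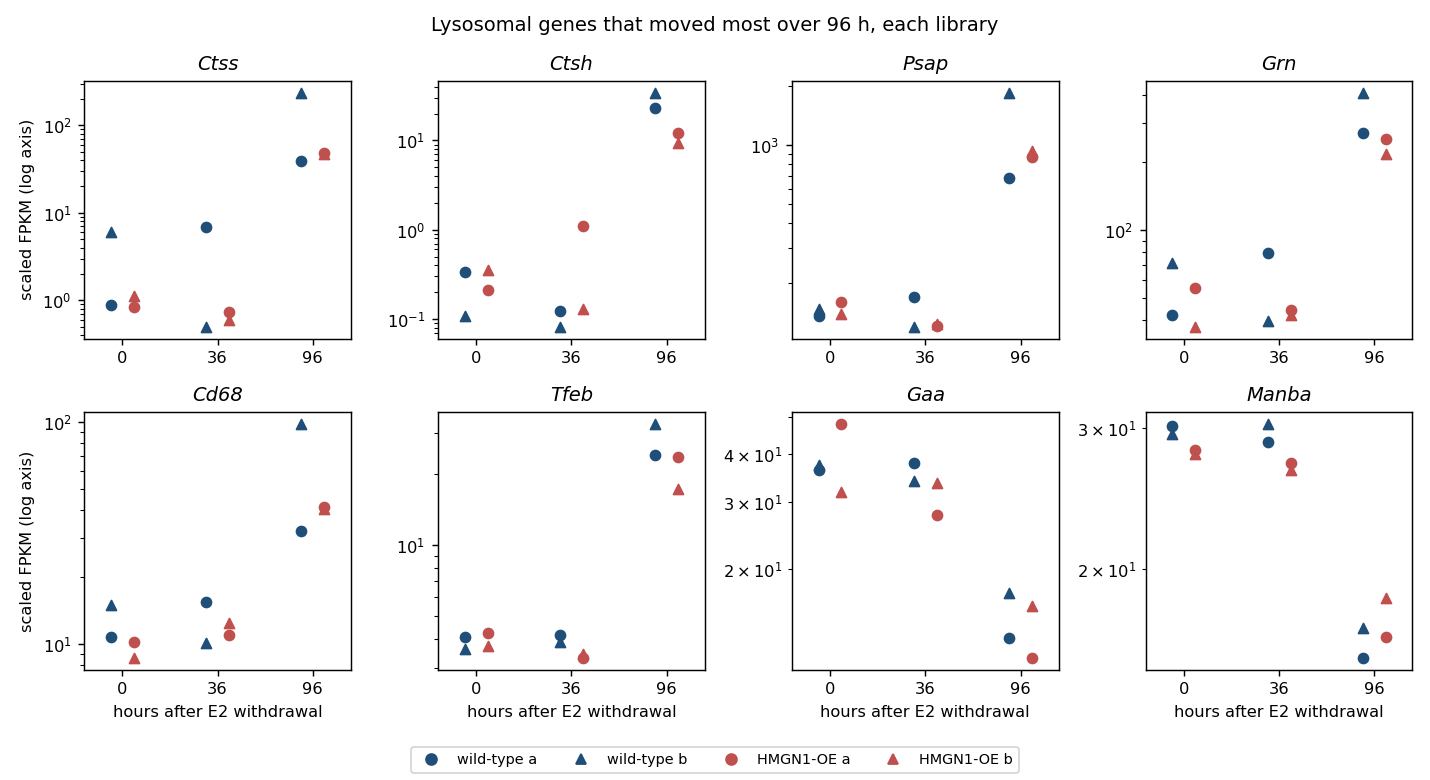
Scaled FPKM (log axis) of 8 lysosomal genes in each library by hours after E2 withdrawal, wild-type in blue and HMGN1-OE in red, with circles for library a and triangles for library b. The first 6 genes lie higher at 96 h than at 0 h in every library, Gaa and Manba lie lower, and the wild-type 96 h library b is the highest of the 96 h libraries for all 8 genes shown except Manba.

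The glycosidases, which cleave sugars from glycoproteins and glycolipids, were split. Gaa, Gusb and Manba fell on both scales, while Idua, Man2b1 and Neu1 rose on scaled FPKM in both genotypes. Gaa is acid alpha-glucosidase, the enzyme that digests glycogen in lysosomes. Its scaled FPKM were 36.2 and 37.4 at 0 h and 13.3 and 17.3 at 96 h in wild-type cells, and 47.9 and 31.8 and then 11.7 and 16.0 in HMGN1-OE cells, with no overlap. Its log2 change was -1.23 ± 0.22 (SE), adjusted p = 0.00098, in wild-type cells and -1.44 ± 0.22 (SE), adjusted p = 0.000508, in HMGN1-OE cells. On deposited FPKM Gaa changed by -3.23 (adjusted p = 7.59e-09) in wild-type cells and by -2.88 (adjusted p = 5.39e-07) in HMGN1-OE cells. Manba, the beta-mannosidase, had a narrow spread between libraries, at 30.2 and 29.5 scaled FPKM at 0 h and 15.5 and 16.9 at 96 h in wild-type cells, and at 28.1 and 27.8 and then 16.5 and 18.4 in HMGN1-OE cells. Its log2 change was -0.84 ± 0.08 (SE), adjusted p = 2.67e-05, in wild-type cells and -0.65 ± 0.08 (SE), adjusted p = 0.000151, in HMGN1-OE cells. Gusb, the beta-glucuronidase, was at 109 and 114 at 0 h and 82.1 and 81.9 at 96 h in wild-type cells, and at 116 and 100.3 and then 75.2 and 86.4 in HMGN1-OE cells. It had log2 changes of -0.44 in wild-type cells (adjusted p = 0.00326) and -0.42 in HMGN1-OE cells (adjusted p = 0.00494) on scaled FPKM, and -0.74 and -0.64 when each library's median was subtracted instead. On deposited FPKM Manba changed by -2.85 (adjusted p = 2.72e-07) in wild-type cells and -2.11 (adjusted p = 0.000238) in HMGN1-OE cells. For Gusb the deposited changes were -2.59 (adjusted p = 1.61e-05) and -1.95 (adjusted p = 0.00176), the latter lost without the HMGN1-OE 0 h library a (adjusted p = 0.0751).

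Man2b1, the lysosomal alpha-mannosidase, rose from 34.7 and 34.5 to 116 and 177 scaled FPKM in wild-type libraries, and from 36.5 and 33.0 to 102 and 99.3 in HMGN1-OE libraries. Its log2 changes were 2.02 and 1.51. Neu1, the sialidase, gave 1.21 in wild-type cells and 1.44 in HMGN1-OE cells, and Idua, the iduronidase of glycosaminoglycan breakdown, gave 1.42 and 0.98, all called. Gla, the alpha-galactosidase, was called higher in wild-type cells at 0.34 and not in HMGN1-OE cells at 0.06. Glb1, the beta-galactosidase, and Naglu, a glucosaminidase of heparan sulfate breakdown, passed in neither genotype on scaled FPKM, at 0.39 and 0.21 in wild-type cells. On deposited FPKM Gla, Glb1 and Naglu were called lower in both genotypes, and the call of Gla in wild-type cells turned direction with the scale. The deposited change of Gla in wild-type cells was -1.74 ± 0.52 (SE), adjusted p = 0.00145, and that of Glb1 in HMGN1-OE cells was -1.64 ± 0.54 (SE), adjusted p = 0.00513. Both calls were lost when 1 library was left out, that of Gla without the wild-type 0 h library b (adjusted p = 0.0580) and that of Glb1 without the HMGN1-OE 0 h or 96 h library a (adjusted p up to 0.183). Hexa, a subunit of beta-hexosaminidase, did not pass on scaled FPKM and was called lower in wild-type cells as deposited. Its deposited FPKM were 32.3 and 142 at 0 h in wild-type cells, 147 and 64.6 at 36 h and 26.3 and 33.8 at 96 h, so that the 2 libraries of 0 h differed by more than the means of 0 and 96 h did.

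Of the 3 sulfatases, Ids and Sgsh were called higher on scaled FPKM in both genotypes. Sgsh, the sulfamidase of heparan sulfate breakdown, changed by 1.60 in wild-type cells and 1.72 in HMGN1-OE cells, and Ids, the iduronate sulfatase, by 1.20 and 0.98. Both were low, with Ids at 0.798 and 1.09 scaled FPKM and Sgsh at 1.49 and 2.54 at 0 h in wild-type cells. Arsb, arylsulfatase B, was at 101 and 55.4 at 0 h and 107 and 72.4 at 96 h in wild-type cells, and its groups overlapped. On deposited FPKM Arsb was called lower in wild-type cells, at -1.91 ± 0.56 (SE), adjusted p = 0.00108. Without the wild-type 96 h library b this change was -1.08 and the call was lost. Exons of an antisense gene cover 21.6% of the Sgsh exon bases and those of another cover 32.3% of the Arsb exon bases in GENCODE vM21, and the library kit does not keep strand, so reads of these pairs cannot be told apart. Antisense exons also cover 26.8% of the Ctsl, 12.8% of the Ctsb, 12.8% of the Hexa and 10.5% of the Ctsa exon bases, and exons of an overlapping gene on the same strand cover 34.4% of those of Ctsd.

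Genes of lipid breakdown were mostly called higher on scaled FPKM, at 7 of 7 in wild-type cells and 6 of 7 in HMGN1-OE cells, against 36.1% and 33.6% of all genes. Psap encodes prosaposin, which is cut into the saposins that help enzymes reach sphingolipids. Its scaled FPKM were 135 and 147 at 0 h and 679 and 1844 at 96 h in wild-type cells, and 160.2 and 138 and then 868 and 928 in HMGN1-OE cells. It had the highest scaled FPKM of the 37 genes in 3 of the 4 libraries of 96 h, all but the wild-type library a, with log2 changes of 2.98 ± 0.38 (SE), adjusted p = 0.000151, in wild-type cells and 2.59 ± 0.38 (SE), adjusted p = 0.000457, in HMGN1-OE cells. On deposited FPKM Psap was at 148 and 307 at 0 h and 338 and 406 at 96 h in wild-type cells, a change of 0.79 that did not pass (adjusted p = 0.205), though both libraries lay higher. Lipa, the acid lipase for cholesteryl esters, changed by 1.64 in wild-type cells and 1.28 in HMGN1-OE cells. Smpd1, the acid sphingomyelinase, changed by 1.46 and 1.38, Asah1, the acid ceramidase, by 0.97 and 0.76, and Ppt1, a palmitoyl thioesterase, by 1.21 and 0.83. The cholesterol exporters Npc1 and Npc2 changed by 1.28 and 0.68 in wild-type cells, both called. In HMGN1-OE cells Npc1 changed by 0.94 with a call and Npc2 by 0.25 without one. On deposited FPKM none of the 7 was called higher, Psap alone had a positive change, and Asah1 and Npc2 were called lower there in wild-type cells and Npc2 in HMGN1-OE cells.

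All 6 membrane protein genes were called higher on scaled FPKM in both genotypes, against 36.1% of all genes in wild-type cells and 33.6% in HMGN1-OE cells. On deposited FPKM none was called higher, and Lamp2 and Cd63 were called lower in wild-type cells, where 77.2% of all genes were. Cd68, a heavily glycosylated membrane protein used as a macrophage marker, was at 10.7 and 14.9 scaled FPKM at 0 h and 32.2 and 98.0 at 96 h in wild-type cells, and at 10.1 and 8.61 and then 41.4 and 40.3 in HMGN1-OE cells. Its log2 change was 2.07 ± 0.43 (SE), adjusted p = 0.00241, in wild-type cells, against 2.02 in HMGN1-OE cells, and without the wild-type 96 h library b it was 1.29. Laptm5, a transporter-like protein of blood cells, changed by 1.55 in wild-type cells and 1.21 in HMGN1-OE cells. Lamp1 and Lamp2, the most abundant glycoproteins of the lysosomal membrane, changed by 1.24 and 0.97 in wild-type cells and by 1.31 and 1.08 in HMGN1-OE cells. Mcoln1, a calcium channel of the lysosome, changed by 1.20 and 1.03. Cd63, a tetraspanin of late endosomes and granules, had the smallest change of the 6 in both genotypes, at 0.64 and 0.79. It was already abundant at 0 h, at 436 and 475 scaled FPKM in wild-type cells.

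Grn, the gene of progranulin, a secreted and lysosomal growth factor precursor, was at 42.0 and 71.6 scaled FPKM at 0 h and 270.3 and 408 at 96 h in wild-type cells, and at 55.3 and 37.2 and then 255 and 219 in HMGN1-OE cells. Its log2 changes were 2.58 ± 0.37 (SE), adjusted p = 0.000285, in wild-type cells and 2.36 ± 0.37 (SE), adjusted p = 0.000618, in HMGN1-OE cells. Tfeb was low at 0 h, at 4.08 and 3.62 scaled FPKM in wild-type cells and 4.24 and 3.73 in HMGN1-OE cells, and was at 24.1 and 32.8 in wild-type cells and 23.8 and 17.3 in HMGN1-OE cells at 96 h. The log2 change of Tfeb was 2.59 ± 0.17 (SE), adjusted p = 7.26e-06, in wild-type cells and 2.10 ± 0.17 (SE), adjusted p = 2.79e-05, in HMGN1-OE cells. On deposited FPKM neither passed, with Grn at 0.40 and 0.82 and Tfeb at 0.59 and 0.69 in wild-type and HMGN1-OE cells.

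The genes with and without the E-box were set side by side over 96 h. Of the 10 members with CACGTG in their window, 6 were called higher in wild-type cells and 3 in HMGN1-OE cells on scaled FPKM, against 36.1% and 33.6% of all genes, with median changes of 0.65 and 0.35. Of the 23 members with a window and no such core, 18 and 16 were called higher, with medians of 1.21 and 0.98. Gaa, whose window with the core is printed above, was one of the 3 that fell, and Sgsh, with 1 core as well, was one that rose. Gusb and Manba, which also fell, have windows without the core. Of the 9 members with TCACGTG, 6 and 3 were called higher in wild-type and HMGN1-OE cells, with medians of 0.91 and 0.42. Of the 24 without it, 18 and 16 were, with medians of 1.20 and 0.98.

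Other genes of the pathway, in lists chosen by function, were counted in the same way on scaled FPKM, where 36.1% of all tested genes were called higher in wild-type cells and 33.6% in HMGN1-OE cells. Counts near those shares, such as 11 of 25 or 3 of 6, are no result about a list. Of the 15 V-ATPase subunits, 14 were called higher in wild-type cells and 13 in HMGN1-OE cells on scaled FPKM and none lower, with Atp6v0a1 at log2 changes of 2.45 and 2.05 in wild-type and HMGN1-OE cells. On deposited FPKM no V-ATPase subunit was called higher, and 10 in wild-type cells and 1 in HMGN1-OE cells were called lower, where 77.2% and 62.4% of all genes were. Of 25 further hydrolases tested, 14 were called higher and 3 lower in wild-type cells and 11 higher and 3 lower in HMGN1-OE cells. Plbd1, a phospholipase B-like protein, rose by 4.44 and 3.23, while Hyal2, a hyaluronidase, changed by -2.37 and -2.24. Of 6 genes of mannose 6-phosphate tagging and sorting, 3 were called higher in wild-type cells and 4 in HMGN1-OE cells and 1 lower in each. The sorting receptor gene Sort1 rose by 3.90 and 3.69, and Gnptab, of the transferase that adds the tag, changed by -1.47 and -1.68. The wild-type 0 h libraries of Sort1 differed widely, at 4.19 and 34.2 deposited FPKM. Of 14 genes of the TFEB family and of mTORC1 at the lysosome, 7 were called higher and 2 lower in wild-type cells and 9 higher and 3 lower in HMGN1-OE cells. Among them Fnip1 rose by 2.20 and 2.06, and Tfec, a relative of Tfeb, rose by 3.21 in HMGN1-OE cells. In wild-type cells Tfec did not pass on scaled FPKM, and its libraries of 0 h differed widely, at 25.2 and 164 deposited FPKM. The close relatives Tfe3 and Mitf rose by 1.74 and 1.70 in wild-type cells and by 1.35 and 1.81 in HMGN1-OE cells. Of 14 genes of fusion and organelle biogenesis, 10 were called higher in wild-type cells and 8 in HMGN1-OE cells and none lower, with Hps3 at 1.32 and 1.25. Of 14 other membrane proteins, 9 were called higher in each genotype, with 2 lower in wild-type cells and 4 in HMGN1-OE cells. Ctns, the cystine exporter, rose by 1.92 and 2.22, and Laptm4b, a relative of Laptm5, changed by -1.79 and -2.58. On deposited FPKM 9 of the 14 other membrane proteins were called lower in wild-type cells and 5 in HMGN1-OE cells, with none higher. Of the TFEB and mTORC1 genes 9 and 5 were called lower on that scale and 0 and 1 higher, and of the 6 genes of tagging and sorting 5 and 3 were lower and 1 and 1 higher. On deposited FPKM 13 of the 14 fusion and biogenesis genes were called lower in wild-type cells and 7 in HMGN1-OE cells, and 16 and 11 of the 25 further hydrolases, again where 77.2% and 62.4% of all genes were called lower.

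At 36 h none of the 37 genes had moved past the test by limma in either genotype. On scaled FPKM 0 of 37 were called in wild-type cells and 0 in HMGN1-OE cells, where 0.00868% and 0.243% of all tested genes were called, and 0 and 2 members had an unadjusted p under 0.05, where 3.09% and 15.8% of all genes did. On deposited FPKM 0 members were called in either genotype, against 0.617% and 1.80% of all genes, and 0 members in each had an unadjusted p under 0.05, where 3.28% and 5.02% of all genes did. The 2 members were Ctsb and Cd63 in HMGN1-OE cells. Ctsb was at 26.4 and 22.5 scaled FPKM at 0 h and 35.3 and 38.1 at 36 h, a log2 change of 0.57 ± 0.16 (SE), adjusted p = 0.165. Cd63 was at 384 and 348 and then 473 and 478, a change of 0.38 ± 0.15 (SE), adjusted p = 0.274. In wild-type cells the test used the 36 h library that resembles 0 h, and without it the members' median change was 0.23 in place of 0.03, with 34 in place of 23 of 37 positive, still with 0 calls. Without the wild-type 0 h library b, which was nearest to a 36 h library, the median was 0.13 with 31 of 37 positive, and without the 0 h library a it was -0.05 with 14 positive, again with 0 calls. On deposited FPKM the wild-type median of 0.52 became 1.08 without the 0 h library b and -0.01 without the 0 h library a. Ctss shows the disagreement between libraries, at 0.878 and 6.09 scaled FPKM at 0 h and 6.80 and 0.496 at 36 h in wild-type cells.

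**Figure D4:**
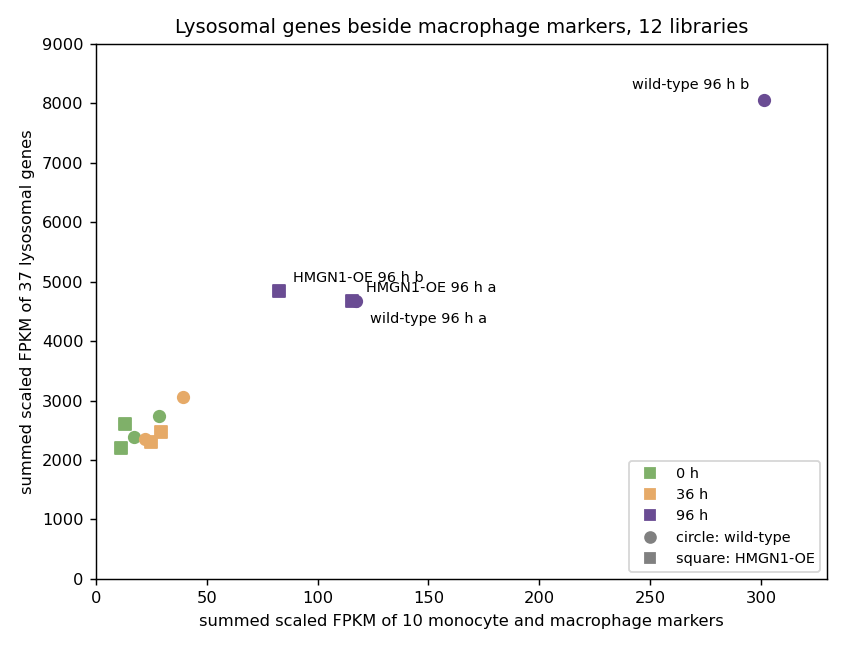
Summed scaled FPKM of the 37 lysosomal genes (vertical axis) against that of 10 monocyte and macrophage markers (horizontal axis) in each of 12 libraries, coloured by time. The 8 libraries of 0 and 36 h lie at 2205 to 3065 on the vertical axis, 3 libraries of 96 h at 4671 to 4839, and the wild-type 96 h library b at 8056, where the markers sum to 301.

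On scaled FPKM the lysosomal genes as a sum were higher at 96 h in all 4 libraries than in any earlier one, and highest in 1 of them. On deposited FPKM the sums were mostly lower at 96 h, at 1772 to 2607 against 2529 to 5992 at 0 and 36 h. The HMGN1-OE library b of 96 h lay above the HMGN1-OE library b of 0 h, and the wild-type 96 h library b was the lowest of the 12. The scaled sum over the 37 genes was 4677 and 8056 scaled FPKM in wild-type libraries a and b at 96 h, and 4671 and 4839 in HMGN1-OE libraries. The share of all FPKM that the members took was 0.359% to 0.487% at 0 and 36 h, 0.475% and 0.466% in HMGN1-OE cells at 96 h, and 0.518% and 0.774% in wild-type libraries a and b. The wild-type library a and both HMGN1-OE libraries of 96 h, with macrophage marker sums of 82.4 to 117, were close to each other in the scaled sum. The share of the wild-type library a was taken over a total that lacks S100a9, listed there at 0.0511 deposited FPKM against 26546 to 73461 in the other 96 h libraries, so no order is read from it. The macrophage marker sum of 301 of the wild-type library b and its scaled lysosomal sum stood apart together, and the part of macrophages in that sum was not tested.

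**Figure D5:**
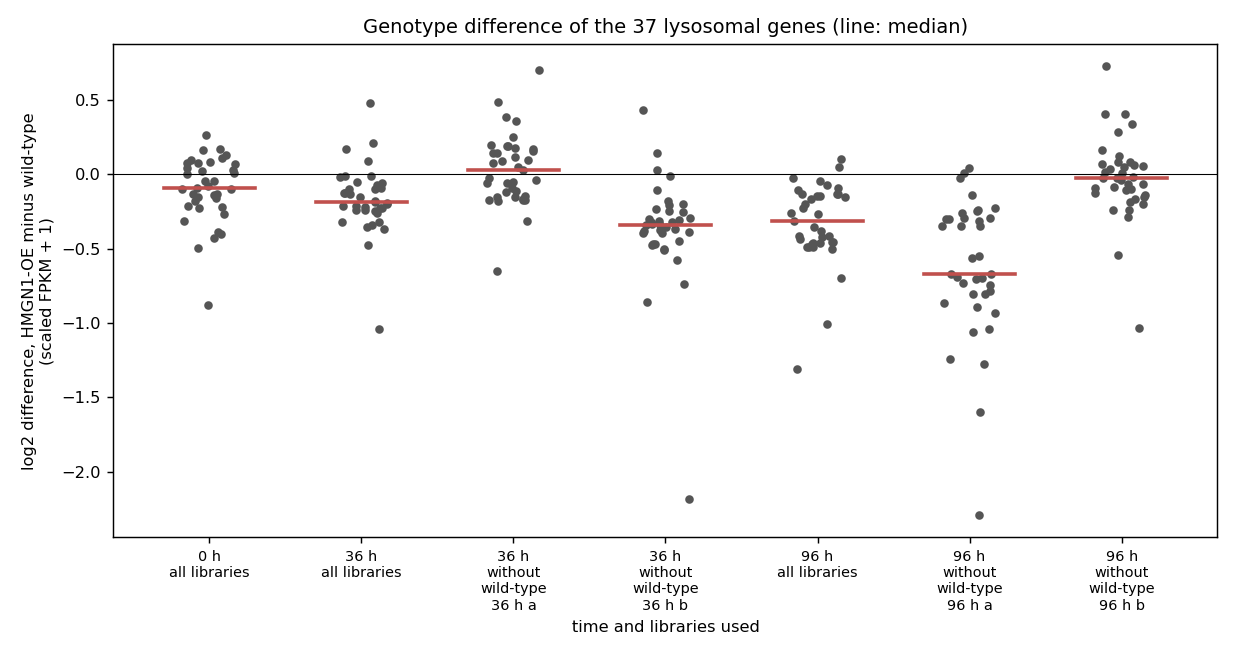
Log2 difference of HMGN1-OE minus wild-type cells on scaled FPKM for each of the 37 genes (dots) with the median (line), at 0, 36 and 96 h with all libraries and without 1 wild-type library at a time. The median at 96 h is -0.32 with all libraries, -0.67 without wild-type library a and -0.03 without library b.

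Between genotypes, no member passed the test by limma at any time with all libraries. On scaled FPKM 0 of 37 were called at 0 h, 0 at 36 h and 0 at 96 h, against 0.156%, 0.0695% and 0.304% of all tested genes, and 0, 0 and 6 members had an unadjusted p under 0.05, where 6.17%, 3.20% and 25.1% of all genes did. On deposited FPKM 0 were called at each time as well, against 1.36%, 1.26% and 0.669% of all genes, and 1, 2 and 1 members had an unadjusted p under 0.05, where 3.97%, 5.15% and 2.73% of all genes did. The members leaned lower in HMGN1-OE cells on scaled FPKM without passing, at 22 of 37 at 0 h, 33 at 36 h and 35 at 96 h, where 51.2%, 49.5% and 50.7% of all genes were lower, with median differences of -0.09, -0.18 and -0.32. The 2 genotypes did not overlap, with HMGN1-OE cells lower, for 7, 16 and 15 members at 0, 36 and 96 h, against 22.7%, 15.0% and 26.5% of all genes. At 96 h the lean rested on 1 library. Without the wild-type 96 h library b, 21 of 37 were lower and the median was -0.03, and without library a, 15 members were called lower, where 901 of the 11516 genes tested were, and the median was -0.67. At 36 h, 34 of 37 were lower with a median of -0.34 without the wild-type library b that resembles 0 h, a value that rests on library a with its higher mast cell and basophil markers, and 18 of 37 with a median of 0.03 without library a. On deposited FPKM at 36 h, 35 of 37 members lay below in HMGN1-OE cells without overlap, against 84.4% of all genes. At 96 h on that scale 33 of 37 were higher in HMGN1-OE cells with a median of 0.19, where 88.7% of all genes were higher and their median was 0.36.

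Ctsh had the largest genotype difference of the 37 at 96 h on scaled FPKM. It was at 22.9 and 34.2 scaled FPKM in wild-type cells and 12.2 and 9.39 in HMGN1-OE cells, with no overlap, a difference of -1.31 ± 0.30 (SE), adjusted p = 0.112. Without the wild-type library b it was -1.03. Ctss had overlapping groups, at 38.9 and 236 scaled FPKM in wild-type cells and 48.0 and 47.0 in HMGN1-OE cells. At 96 h Ctsd gave a difference of -0.70 (adjusted p = 0.234), Man2b1 of -0.50 (adjusted p = 0.149) and Ppt1 of -0.47 (adjusted p = 0.137). At 36 h Ctss was at 13.3 and 1.18 deposited FPKM in wild-type cells and 1.09 and 0.827 in HMGN1-OE cells, a difference of -1.51 ± 0.45 (SE), adjusted p = 0.0565, on that scale. The 2 groups did not overlap on deposited FPKM, but they did on scaled FPKM, and of the wild-type libraries only library a stood well above. With all libraries Ctss was not called on deposited FPKM, but it was without any 1 of the wild-type 0 h library b, the 36 h library b and either 96 h library, and with a pseudocount of 0.1.

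The test of whether the 96 h change differed between genotypes called 0 members by limma on either scale, against 0.677% of all genes on deposited and 0.0347% on scaled FPKM. On scaled FPKM 1 member had an unadjusted p under 0.05 and on deposited FPKM 0, where 14.5% and 2.90% of all genes did. That member was Ctsh, with a log2 difference of -1.39, HMGN1-OE minus wild-type (adjusted p = 0.298). Without the wild-type 96 h library a, 4 members were called in this test on scaled FPKM, Ctsa, Ctsl, Man2b1 and Psap, where 5.99% of all genes were called, and 0 without library b, where 0.0521% were. Calls made in 1 genotype and not in the other, such as those of Ctsa, Ctsc, Ctsd, Gla and Npc2 over 96 h, are therefore not shown to differ between genotypes.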

How the data were processed

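RNA of 12 cultures (6 groups, 2 libraries each) was sequenced with spiked ERCC RNAs. The authors deposited FPKM per gene after loess normalization to the spike-ins. The submitters' processing notes name HISAT, Cufflinks 2.0.0 and the build mm9, while the study's methods name Bowtie and RPKM for RNA-seq, so the exact pipeline of the table is uncertain. The poly(A) kit keeps no strand. Values were not whole multiples of a read, so depth is unknown and no count test was possible.

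The filter on low values kept 11516 genes that reached 1 FPKM in 2 or more libraries. Group means were fitted to log2(FPKM + 1) and log2(scaled FPKM + 1) with limma 3.58.1 (trend, R 4.3.3), with Benjamini-Hochberg adjustment over all tested genes and calls at an adjusted p under 0.05. Log2 changes are on these scales and understate the change of low genes. On deposited FPKM the fit gave each gene the spread typical of genes at its level, with no weight on its own spread. The SE and p-values of that scale therefore do not show how far the 2 libraries of a single gene differ. On scaled FPKM a gene's own spread was weighted together with the typical one. An exact two-sided permutation test of 2 against 2 cannot go below p = 0.333, so none was used. Members given in full are, per genotype and scale, up to 6 called in each direction with the largest change. The scripts were tested on simulated data: of 50 genes changed by 1 on the log2 scale in wild-type cells over 96 h, 78% were recovered on scaled and 6% on deposited FPKM. Of 50 changed by 2, 90% and 46% were recovered. The simulation changed few genes and drew noise for each gene apart, whereas in the data most genes were called over 96 h. These percentages are therefore not the sensitivity of the fits reported here, and changes on the deposited scale could be missed. Alternatives were a pseudocount of 0.1, no filter, limma without the trend, each gene's own variance, quantile normalization or each library's median subtracted for scaled FPKM, and each library left out in turn. Members, gene lists and alternatives were chosen with earlier results of these data known. Figures and sequences were made with Python 3.11.15, pandas 2.3.3 and matplotlib 3.10.9.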

Additional observations from a re-analysis of the deposited data

Results flagged for a closer look

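Idua, the iduronidase, moved in opposite directions from 0 to 36 h in the 2 genotypes on scaled FPKM, with both 36 h libraries above both 0 h libraries in wild-type cells and below them in HMGN1-OE cells. It was at 4.39 and 4.38 scaled FPKM at 0 h and 4.88 and 4.58 at 36 h in wild-type cells, a log2 change of 0.0884. In HMGN1-OE cells it was at 4.78 and 4.25 and then 3.47 and 3.49, a log2 change of -0.297. The wild-type libraries b of 0 and 36 h each resembled a library of the other time. Neither change passed the test, and the difference between the genotypes was not tested for this time.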

How the results depend on the processing

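On scaled FPKM the number of members called over 96 h moved less over the libraries left out than on deposited FPKM. In wild-type cells it fell without the 96 h library b. Of 614 recomputed changes of named members, 600 kept direction and call, 14 lost the call, all on deposited FPKM and for Ctss, Arsb, Gla, Gusb, Ctsl, Ctsz and Glb1, and 0 reversed. Many of the 614 could not reverse. Leaving out a library of another group cannot alter a deposited log2 change, and a different variance estimate alters none. The named members were also picked as the largest called changes, so the 600 are no measure of robustness. On deposited FPKM, leaving out 1 library gave 9 to 26 calls in wild-type (19 with all) and 4 to 15 in HMGN1-OE cells (12 with all), and leaving out both wild-type libraries b of 36 and 96 h, an alternative chosen after seeing the data, gave 11 in wild-type cells. Without the filter on low values the deposited counts were 13 and 8, and with each gene's own variance 14 and 8. The shares of all genes called are not given here for these alternatives or for the fit without both libraries b. No shift of the members is read from these counts. Between genotypes on deposited FPKM, leaving out a library gave 0 to 1 calls at 0 h and 0 to 1 at 36 h, and 1 call, Ctss, came at 36 h with a pseudocount of 0.1 and without both libraries b. On scaled FPKM at 96 h the range was 0 to 15, and 0 to 4 for the genotype by time test, in each case highest without the wild-type 96 h library a. Without both libraries b, 1 member, Ctsb, was called at 36 h against 0 h in HMGN1-OE cells. The number of members lower in HMGN1-OE cells on scaled FPKM ran from 17 to 31 at 0 h, from 18 to 34 at 36 h and from 21 to 35 at 96 h over the libraries left out, with 21 at 96 h without both libraries b. The causes were not tested. No paired analysis was possible because the table's columns carry other digits than the replicate numbers of the labels. Where 1 library of a group was left out, the lone library was assumed to vary like the other groups.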
